A study of Mus musculus with 9 samples.

Results

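The genes described here are 10 genes of calcium handling at the sarcoplasmic reticulum and surface membrane of the heart muscle cell. They are Atp2a2, Pln, Sln, Ryr2, Casq2, Trdn, Jph2, Cacna1c, Slc8a1 and Camk2d. They were taken by gene symbol from a count table of 13890 genes, all 10 were found, and all 10 were among the 13364 genes that passed the filter on low counts. With each heartbeat, calcium enters the cell through the L-type channel, opens the ryanodine receptor, and is released from the sarcoplasmic reticulum to start contraction. Relaxation follows when the SERCA2a pump returns calcium to the store and the sodium-calcium exchanger removes it from the cell. Phospholamban and sarcolipin are small membrane peptides that slow the pump, and calsequestrin holds the stored calcium beside the release channel.

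RNA was measured in the hearts of 9 male NSG mice, an immunodeficient strain, 8 weeks old at surgery and taken about 3 weeks later. The 3 groups held 3 animals each. S mice (animals 2, 3 and 5) had a sham operation and weekly saline. T mice (animals 11, 12 and 15) carried the label of tumour hosts: HCT116, a line of human colorectal cancer cells, was injected into the spleen to form liver metastases, and saline was given weekly. A + T mice (animals 20, 21 and 22) were labelled as HCT116 hosts that received weekly ACVR2B/Fc, a soluble receptor that traps activins and myostatin. The comparisons ask which transcripts differed in tumour hosts (T vs. S) and whether the treatment altered them (A + T vs. T), with A + T vs. S as the remaining contrast. The comparisons share libraries, so a library that stands apart enters more than 1 of them. Heart tissue was homogenized, and in such bulk RNA fewer cells of a type cannot be told apart from less RNA per cell.

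Total counts were 12392222 to 19732471 per library, and levels are given as CPM, the counts scaled to the library total and by the TMM factor. Cardiomyocyte marker genes were high in every heart (8 of 8 genes, summed CPM 49365 to 80692), whereas 4 of 7 skeletal muscle markers were in the table and summed to 2.06 to 4.44 CPM. The 3 measured airway markers summed to 0.498 to 2.39 CPM in S and 1.55 to 104 in T, with 1.08 to 1278 in A + T and the highest value in animal 22. Endothelial markers summed to 658 to 771 CPM in S and 388 to 595 in the other hearts, and fibroblast markers to 1138 to 1356 and 754 to 1301. Macrophage markers summed to 75.2 to 88.1 CPM in S and T and 117 to 180.0 in A + T, and adipocyte markers to 288 to 364 in S and T and 368 to 518 in A + T. Erythroid (74.1 to 362 CPM) and mesothelial markers (25.9 to 143 CPM) overlapped between groups. The part of these genes in the results was not tested. The 665 genes with the longest transcripts (at least 8.03 kb) lay by a median of 0.20 log2 units under their 9-library mean in animal 22 and 0.14 above it in animal 2. Set beside the gene list published with the study, T vs. S in these libraries followed the column for sham mice given ACVR2B/Fc and not the column for tumour hosts. Over 429 listed genes, the log2 fold changes had a Pearson's r of 0.9999 with the former and 0.275 with the latter. The median absolute differences were 0.0046 and 0.692. None of the 10 genes is on that list. Whether animals 11, 12 and 15 were tumour hosts or sham mice given ACVR2B/Fc was not settled. In the latter case T vs. S would compare treated with untreated sham mice, and A + T vs. T would compare treated tumour hosts with treated sham mice. The group is called T by its label, and its values below are those of the libraries labelled T.

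Per unit of transcript length, Pln and Atp2a2 were among the most abundant messages of the heart. On the deposited log2 scale, which is corrected for gene length, Pln averaged 11.49 over the 9 libraries (rank 11 of all genes) and Atp2a2 averaged 11.12 (rank 14), and their ranges overlapped. Casq2 followed at a level of 8.57 (rank 147). Ryr2 (7.07), Jph2 (7.05), Sln (6.98) and Trdn (6.67) formed a middle group in which each overlapped the next. Slc8a1 (5.31), Cacna1c (5.118) and Camk2d (4.40), which encode the exchanger, the pore of the entry channel and a kinase, were the lowest and also overlapped in that order. Ranges separated between neighbours in 3 places only, namely between Atp2a2 and Casq2, between Casq2 and Ryr2, and between Trdn and Slc8a1.

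**Figure D1:**
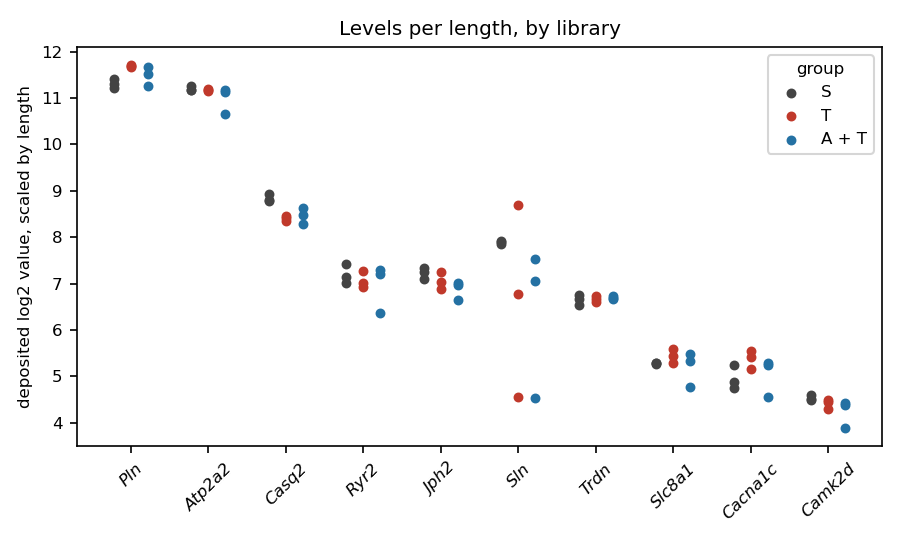
Level per transcript length of the 10 genes on the deposited log2 scale (vertical axis), with 1 point per heart coloured by group (S, T, A + T). Pln and Atp2a2 lie highest, between 10.65 and 11.71, and Sln has the widest spread, from 4.54 to 8.70.

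In the libraries labelled T, 2 of the 10 genes differed from S by edgeR's quasi-likelihood test at an adjusted P-value under 0.05, at which 21.2% of all genes tested were called. Pln, the pump inhibitor, was 30.2% higher, and Casq2, the calcium store protein, fell by 25.8%. The same 2 genes were those at an unadjusted P-value under 0.05, which 35.4% of all genes reached. The same test called, in A + T vs. T, 0 of the 10 (5.88% of all genes), and 0 of the 10 reached an unadjusted P-value of 0.05 (22.4% of all genes). DESeq2, limma-voom and edgeR's likelihood ratio test also called 0 of the 10 there. For A + T vs. S the quasi-likelihood test called 0 of the 10 (8.31% of all genes), while 3 reached an unadjusted P-value of 0.05 (26.1% of all genes). DESeq2, limma-voom and the likelihood ratio test each called 1, Casq2. Among all genes, DESeq2 called 1198 in A + T vs. T and 1511 in A + T vs. S. The quasi-likelihood test called 786 and 1110. Under the study's thresholds, an unadjusted P-value under 0.05 with a change of at least 1.5-fold, 0 of the 10 were called in any comparison, against 14.2% of all genes in T vs. S, 8.11% between A + T and T and 8.91% between A + T and S. The median log2 fold change of the 10 genes was −0.08 between T and S, −0.18 between A + T and T and −0.21 between A + T and S, where the medians of all genes were within 0.01 of 0. Without animal 22 of A + T, the latter 2 medians were −0.03 and −0.02.

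**Figure D2:**
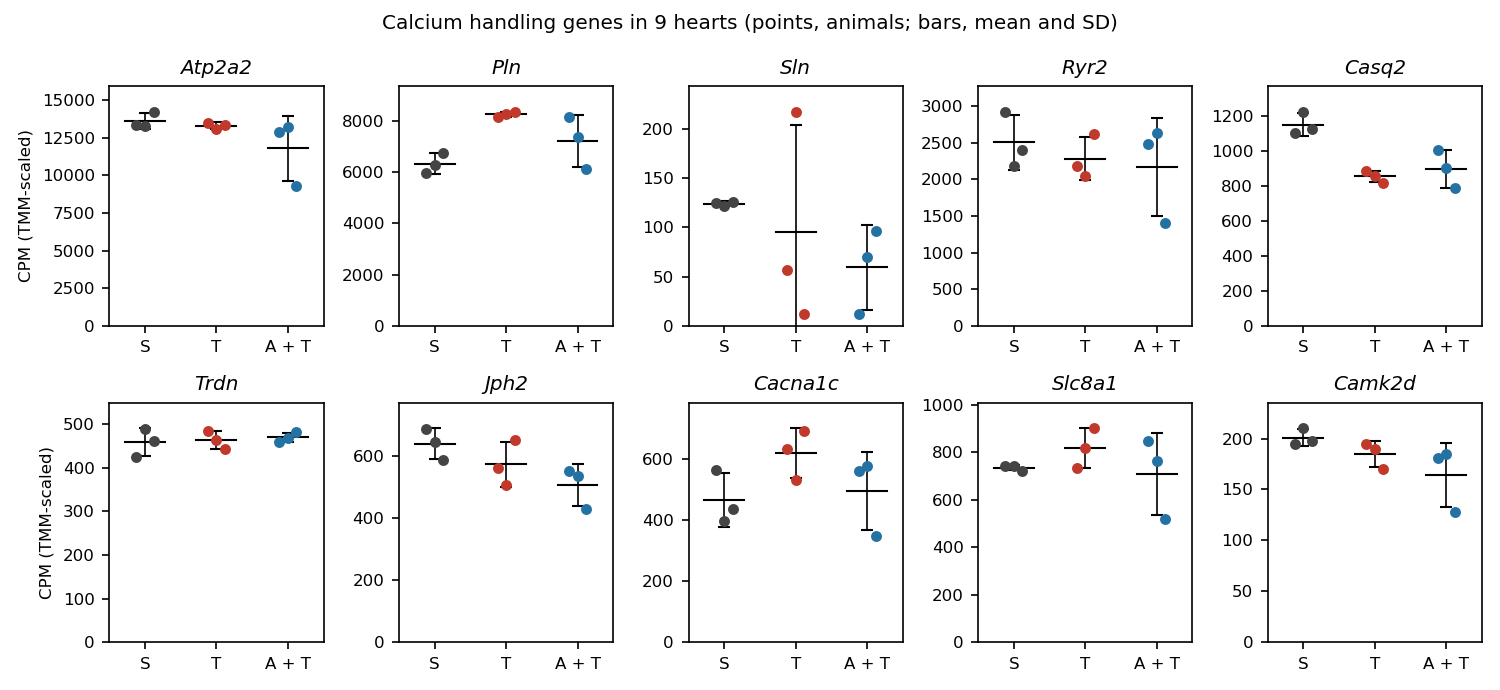
TMM-scaled CPM of each gene (vertical axis, linear from 0) in S, T and A + T, with 1 point per animal and bars for mean and SD (n = 3). Pln lies higher and Casq2 lower in T than in S without overlap, Sln ranges from 12.2 to 217 within T, and 1 A + T heart, animal 22, is the lowest of the 9 for 7 of the 10 genes. The lower SD bar of Sln in T is cut at 0.

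Atp2a2 encodes SERCA2a, the pump that refills the store (chr5:122453513-122502225, minus strand, GRCm38). Its level was 13363, 13259 and 14215 CPM in S and 13471, 13053 and 13353 in T, with 12858, 13211 and 9292 in A + T. The S and T hearts overlapped, and the A + T hearts all lay below the S hearts, animal 22 by far the most. Animal 3 of S and animal 21 of A + T were almost level. The log2 fold change was −0.03 between T and S (SE 0.13, 95% interval −0.33 to 0.26, adjusted P = 0.882) and −0.17 between A + T and T (SE 0.13, adjusted P = 0.488). Between A + T and S it was −0.21 (SE 0.13, adjusted P = 0.358). Without animal 22 the latter 2 values were −0.03 and −0.06.

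Pln encodes phospholamban, which slows SERCA2a until it is phosphorylated (chr10:53337667-53345987, plus strand, GRCm38). It was 5971, 6260 and 6752 CPM in S and 8131, 8250 and 8343 in T, with 8130, 7369 and 6104 in A + T. Every T heart was above every S heart and above every A + T heart, although animals 11 and 20 were almost level, and A + T reached down into the range of S. The mean rose from 6328 CPM in S to 8241 in T, a log2 fold change of 0.38 (SE 0.12, 95% interval 0.12 to 0.64, adjusted P = 0.0415). A + T was at −0.19 vs. T (SE 0.12, adjusted P = 0.357) and 0.19 vs. S (SE 0.12, adjusted P = 0.342), and neither passed the test (−0.09 and 0.30 without animal 22). The T vs. S call stood close to the threshold: it was kept in 7 of 11 alternatives and in 2 of 9 fits with 1 heart left out (without animal 20 or 22 of A + T), with a log2 fold change of 0.34 to 0.43 and an adjusted P-value of 0.00364 to 0.213 over all of these. Leaving out any heart of S or T, or animal 21, gave adjusted P-values of 0.0604 to 0.130. An exon of Cep85l overlaps Pln on the other strand, and the authors counted reads by strand.

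The sequences before the start sites of Pln and Casq2 are shown because these were the 2 genes that passed the test, and both come from the RefSeq promoter table (GRCm38.p6), 5′ to 3′ on the plus strand. Capitals mark matches to 4 motifs searched on either strand in the 250 bases before the RefSeq start, namely the TATA-box letters TATAAA, the CCAAT box, the site AGATAA of the Gata factors, and the MEF2 motif. The Gata match lies on the minus strand and is printed in its plus-strand letters. The Pln stretch ends before the first base of the gene in GENCODE.
Pln, chr10:53337436-53337666: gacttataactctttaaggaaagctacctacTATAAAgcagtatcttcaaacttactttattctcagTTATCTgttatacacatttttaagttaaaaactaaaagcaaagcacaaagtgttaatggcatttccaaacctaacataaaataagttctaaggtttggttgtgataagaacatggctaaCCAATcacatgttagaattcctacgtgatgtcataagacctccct
Casq2, chr3:102086165-102086414: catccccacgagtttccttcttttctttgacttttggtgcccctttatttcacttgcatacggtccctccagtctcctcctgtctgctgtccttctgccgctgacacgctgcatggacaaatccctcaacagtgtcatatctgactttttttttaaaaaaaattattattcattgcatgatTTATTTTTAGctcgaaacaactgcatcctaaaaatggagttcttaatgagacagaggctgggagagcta

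The Pln window held TATAAA at 219, AGATAA at 183 and CCAAT at 64 bases before the start, which 12.4%, 9.99% and 33.8% of 32851 promoters of this length also held. The Casq2 window held a MEF2 match at 69 bases before the start, present in 2.92% of promoters. The serum response (CArG) motif, present in 1.47% of promoters, was found in neither window. The E-box letters CANNTG, held by 66.2% of promoters, were also searched and are not marked in capitals. They matched at 59 bases before the start in the Pln window and at 200 and 52 in the Casq2 window. These matches describe letters only. G and C made up 32.0% of the Pln stretch and 41.6% of the Casq2 stretch. A promoter was listed for 7 of the 10 genes.

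Because phospholamban acts on the pump, the counts of Pln were divided by those of Atp2a2 within each library, which needs no scaling between libraries. The ratio was 0.447, 0.472 and 0.475 in S and 0.604, 0.632 and 0.625 in T, with 0.632, 0.558 and 0.657 in A + T. Neither T nor A + T overlapped S, and A + T overlapped T. The S hearts averaged 0.465 ± 0.0155, the T hearts 0.620 ± 0.0148 and the A + T hearts 0.616 ± 0.0516 (SD, n = 3). For all other genes divided by Atp2a2, 41.0% did not overlap in T vs. S and 30.6% in A + T vs. S. Animal 22 had the highest ratio of the 9 hearts. Its Atp2a2 was the lowest of the 9 (9292 CPM), and its Pln lay within the range of S (6104 CPM).

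**Figure D3:**
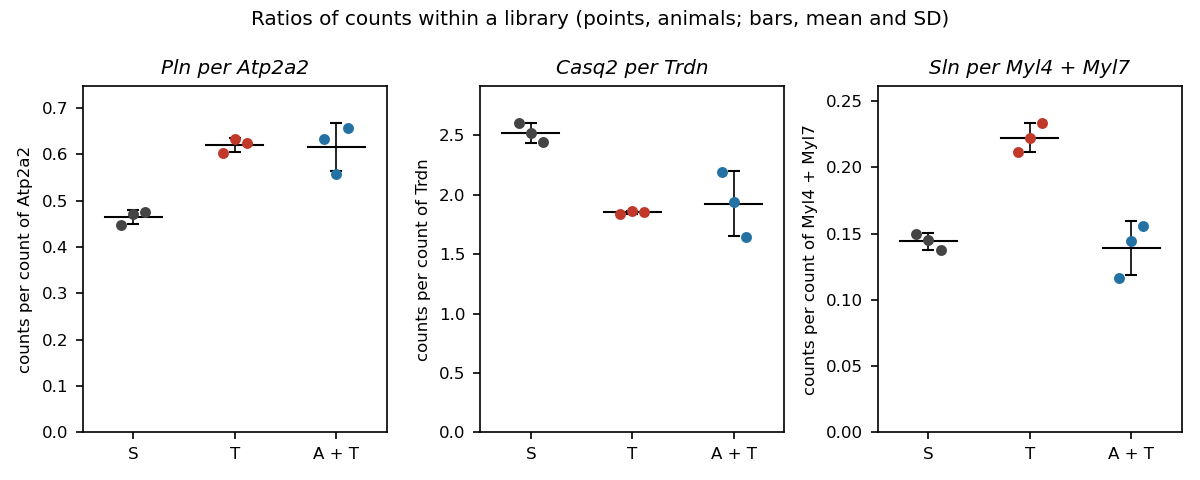
Ratios of raw counts within each library (vertical axes, from 0) for Pln per Atp2a2, Casq2 per Trdn and Sln per Myl4 plus Myl7, with 1 point per animal and bars for mean and SD (n = 3). T and A + T lie apart from S in the Pln and Casq2 ratios, and T lies above both other groups in the Sln ratio.

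Sln encodes sarcolipin, the inhibitor of the pump that is found mainly in the atria of the heart (chr9:53850164-53854560, plus strand, GRCm38). It was the most uneven of the 10 genes, at 125, 122 and 126 CPM in S and 57.2, 217 and 12.2 in T, with 12, 69.6 and 96.5 in A + T. The S hearts were nearly equal, whereas 1 T heart lay far above and 2 lay below them, and all A + T hearts lay below them. Its biological coefficient of variation was 68.4%, the 99.5th percentile of all genes, where that of the other 9 genes was 8.56% to 18.8% and the median of all genes was 12%. On the log2 scale the fitted difference was −0.37 between T and S (SE 0.81, adjusted P = 0.783), −0.70 between A + T and T (SE 0.83, adjusted P = 0.661) and −1.06 between A + T and S (SE 0.83, adjusted P = 0.446). The interval for A + T vs. S ran from −2.90 to 0.77, and neither a fall nor a rise within those bounds can be set aside.

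The level of Sln moved with the sum of the atrial marker genes Myl4, Myl7, Bmp10, Nr2f2, Kcnj3, Stard10, Dkk3 and Nppa. These 8 summed to 3275 to 3321 CPM in S and 1702, 4845 and 977 in T, with 939.8, 1656 and 2269 in A + T, and none was at 0 in a group. Nppa was the largest part of the sum in every heart, at 678.6 to 3358 CPM. Bmp10 did not follow Sln within T. It was 66.1 to 158 CPM in S and 1.86, 1.13 and 1.78 in T, with 0.247, 0.359 and 51.6 in A + T. Over the 9 hearts, log2 Sln and log2 atrial sum had a Pearson's r of 0.960 (exact permutation of pairings, two-sided, P = 4.41e-05, adjusted P = 0.000661 over 30 relations) and a Spearman's rho of 0.933 (P = 0.00075, adjusted P = 0.0112, exact permutation). Without animals 15 and 20, the hearts farthest from the median sum, r was 0.976. On deviations from the group means, r was 0.965 (exact permutation within groups, two-sided, P = 0.0185, adjusted P = 0.139 over 30 relations), where 216 arrangements allow no P-value under 0.00463. Ventricular markers (4 of 4 genes) summed to 8729 to 11864 CPM in the 9 hearts.

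**Figure D4:**
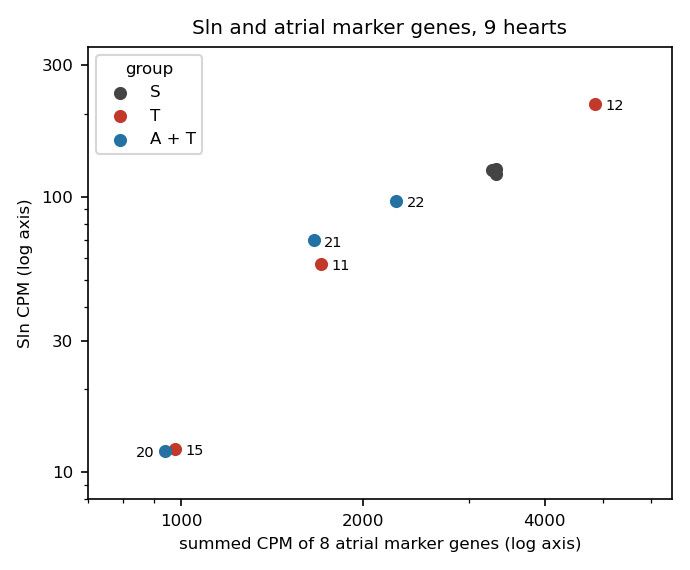
Sln CPM (vertical, log axis) against the summed CPM of 8 atrial marker genes (horizontal, log axis) in 9 hearts, coloured by group, with T and A + T animals numbered. Hearts 15 and 20 share the lowest values, the 3 S hearts lie together, and heart 12 of T is highest on both axes.

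Divided by the counts of the atrial light chains Myl4 and Myl7, a ratio chosen after the levels had been seen, Sln gave 0.150, 0.146 and 0.137 in S. The ratio was 0.211, 0.223 and 0.233 in T and 0.117, 0.145 and 0.156 in A + T. On this footing the 3 T hearts lay within a narrow range above both other groups, although their Sln levels differed widely. Among all genes divided in this way, 19.0% did not overlap in T vs. S and 0.135% in A + T vs. T. The divisor itself varied widely, with Myl4 at 28.9 to 566 CPM in T and 59.3 to 377 in A + T. Genes that do not follow it tend to overlap once divided, so these shares do not measure how rare the separation of Sln was. The ratio overlapped between A + T and S.

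Ryr2 encodes the ryanodine receptor, the release channel of the store (chr13:11553102-12106945, minus strand, GRCm38). It was 2924, 2189 and 2406 CPM in S and 2178, 2052 and 2615 in T, with 2481, 2636 and 1405 in A + T. All groups overlapped, and animal 22 was again the lowest. The log2 fold change was −0.14 between T and S (SE 0.21, adjusted P = 0.689), −0.07 between A + T and T (SE 0.21, adjusted P = 0.882) and −0.21 between A + T and S (SE 0.21, adjusted P = 0.577), and the last 2 were 0.16 and 0.04 without animal 22. Ryr2 has a transcript of about 16.9 kb by the length implied in the deposited table, and its log2 CPM moved with the deviation of the 665 long genes (r = 0.961, exact permutation P = 4.13e-05, adjusted P = 0.000661; rho = 0.933, adjusted P = 0.0112). Without animals 2 and 22, r was 0.905. On deviations from the group means it was 0.960 (exact permutation within groups, P = 0.00926, adjusted P = 0.139). Over all 9 hearts, none of the other 28 relations of the 10 genes with the atrial sum, the long genes or the share of ribosomal RNA gene Rn45s (4.57% to 19.6% of counts) had an adjusted P-value under 0.05. Within groups, the same adjusted P-value of 0.139 by exact permutation was reached by Casq2 with the Rn45s share (r = −0.728). Trdn (r = −0.750) and Cacna1c (r = 0.920) also reached it with the long genes.

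Casq2 encodes cardiac calsequestrin, which binds calcium inside the store (chr3:102086415-102146514, plus strand, GRCm38), and its upstream sequence is printed above. It was 1105, 1227 and 1126 CPM in S and 886.5, 860.6 and 820.6 in T, with 1005, 905.5 and 790.3 in A + T. Every T heart and every A + T heart was below every S heart, and T and A + T overlapped. From S to T the level fell by 0.43 on the log2 scale (SE 0.10, 95% interval −0.65 to −0.21, adjusted P = 0.0133). The call was kept in 7 of 9 fits with 1 heart left out and in 10 of 11 other alternatives, and was lost with scaling by library size only (adjusted P = 0.0774), without animal 3 of S (adjusted P = 0.0575) and without animal 15 of T (adjusted P = 0.0510). Between A + T and S the log2 fold change was −0.36 (SE 0.10), and the adjusted P-value of 0.0544 missed the threshold, with a range of 0.00800 to 0.251 over the alternatives and a value of 0.0376 without animal 20. A + T and T differed by 0.07 (SE 0.10, adjusted P = 0.716), and by 0.16 without animal 22.

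Trdn encodes triadin, which ties calsequestrin to the release channel (chr10:33080554-33476709, plus strand, GRCm38). It was the steadiest of the 10 genes, at 425, 488 and 462 CPM in S and 483, 462 and 443 in T, with 459, 468 and 480.5 in A + T. The groups overlapped throughout. Its log2 fold change was 0.01 between T and S, 0.02 between A + T and T and 0.03 between A + T and S, with 95% intervals between −0.16 and 0.21. Counts of Casq2 per count of Trdn in the same library were 2.60, 2.52 and 2.44 in S and 1.84, 1.86 and 1.85 in T, with 2.19, 1.93 and 1.65 in A + T. Neither T nor A + T overlapped S in this ratio, and the S hearts averaged 2.52 ± 0.0814, the T hearts 1.85 ± 0.0142 and the A + T hearts 1.92 ± 0.273 (SD, n = 3). For all other genes divided by Trdn, 36.7% did not overlap in T vs. S and 28.6% in A + T vs. S.

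Jph2 encodes junctophilin, which holds the store against the surface membrane (chr2:163336242-163397993, minus strand, GRCm38). It was 688, 647 and 589.6 CPM in S and 562.5, 507 and 652 in T, with 553, 538 and 429 in A + T. T overlapped both other groups, and every A + T heart was below every S heart. Fitted log2 fold changes were −0.16 between T and S (SE 0.12, adjusted P = 0.389), −0.18 between A + T and T (SE 0.12, adjusted P = 0.430) and −0.34 between A + T and S (SE 0.12, unadjusted P = 0.0204 and adjusted P = 0.118 by edgeR). Without animal 22 the last 2 were −0.08 and −0.23. The ratios of Casq2 and of Jph2 to Ryr2 overlapped between the groups of every comparison.

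Cacna1c encodes the pore of the L-type calcium channel (chr6:118587240-119196418, minus strand, GRCm38). It was 565, 396.5 and 437 CPM in S and 634, 532 and 694 in T, with 562, 579.5 and 348 in A + T. Animal 2 of S lay within the range of T, and the other 2 S hearts lay below it. T vs. S gave a log2 fold change of 0.41 (SE 0.20, 95% interval −0.02 to 0.85, adjusted P = 0.163), as large as that of Pln but with a wider error. It passed the test when animal 22 of A + T was left out of the shared fit (0.42, adjusted P = 0.0366) and when levels were corrected for the dependence on gene length (0.53, adjusted P = 0.0173). A + T was at −0.32 vs. T (SE 0.20, adjusted P = 0.369) and 0.09 vs. S (SE 0.20, adjusted P = 0.812), or −0.12 and 0.30 without animal 22.

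Slc8a1 encodes the sodium-calcium exchanger, which carries calcium out of the cell (chr17:81373105-81738377, minus strand, GRCm38). It was 739.6, 741 and 722 CPM in S and 731, 817.5 and 899.9 in T, with 846, 762 and 517 in A + T, and all groups overlapped. On the log2 scale the fitted difference was 0.15 between T and S (SE 0.16, adjusted P = 0.526), −0.20 between A + T and T (SE 0.16, adjusted P = 0.484) and −0.05 between A + T and S (SE 0.16, adjusted P = 0.871). Without animal 22 the last 2 were −0.02 and 0.14. Its ratio to Atp2a2, the other route by which calcium leaves the cytosol, overlapped between the groups of every comparison.

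Camk2d encodes the delta subunit of the calcium/calmodulin-dependent kinase that phosphorylates phospholamban and the ryanodine receptor (chr3:126596302-126846326, plus strand, GRCm38). It was 194.5, 210.1 and 197 CPM in S and 194.4, 189.8 and 170.5 in T, with 180.5, 184 and 128 in A + T. The T and A + T hearts all lay below the S hearts, although animals 2 and 11 were almost level. The log2 fold change was −0.12 between T and S (SE 0.13, adjusted P = 0.553), −0.17 between A + T and T (SE 0.13, adjusted P = 0.469) and −0.29 between A + T and S (SE 0.13, unadjusted P = 0.0471 and adjusted P = 0.186 by edgeR). Without animal 22 the last 2 were −0.02 and −0.13 (adjusted P = 0.904 and 0.366).

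Groups did not overlap for 3 of the 10 genes in T vs. S (Pln, Casq2 and Camk2d), against 42.6% of all genes. Between A + T and T they did not overlap for 1, Pln, against 25.4%, and in A + T vs. S for 5 (Atp2a2, Sln, Casq2, Jph2 and Camk2d), against 32.4%. The 10 genes together made up 1.95% of the counts in animal 22 and 2.39% to 2.92% in the other 8 hearts. Their summed level was 19590 CPM in animal 22 and 25539 to 28004 elsewhere. Without animal 22, the log2 fold change between A + T and S was −0.06 for Atp2a2, 0.04 for Ryr2, 0.14 for Slc8a1 and 0.30 for Cacna1c, and Casq2 was at −0.27 (adjusted P = 0.0973). With all hearts and a correction for the dependence on gene length, the same values were −0.18, −0.13, 0.02, 0.17 and −0.38. Animal 22 also had the lowest sum of the cardiomyocyte markers, at 49365 CPM against 55551 to 80692 in the other hearts. Its ventricular markers (10953 CPM) lay within the range of the other hearts. It had the most airway RNA and the highest mesothelial (142.6 CPM), erythroid (361.9 CPM) and adipocyte (518.5 CPM) sums. The part of these differences in the levels of the 10 genes was not tested.

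**Figure D5:**
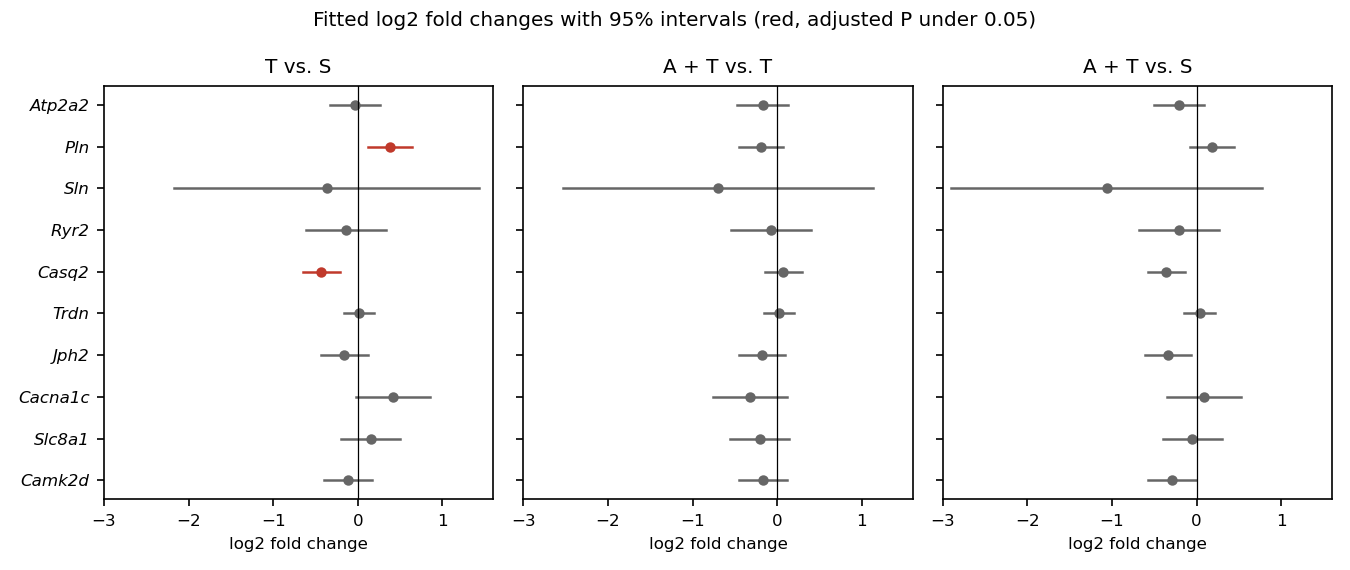
Fitted log2 fold changes (points, horizontal axis) with 95% intervals (lines) of the 10 genes in the 3 comparisons, with an adjusted P-value under 0.05 in red. Pln (0.38) and Casq2 (−0.43) in T vs. S are red, and Sln has by far the widest intervals.

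Over the 9 hearts the 10 genes did not vary as a unit. As a description of 9 libraries that share a scaling, Atp2a2 had a Pearson's r of 0.919 with Camk2d, 0.839 with Ryr2 and 0.796 with Slc8a1, and Ryr2 had 0.814 with Jph2. Pln had 0.716 with Cacna1c and −0.475 with Casq2, and Trdn had −0.648 with Ryr2. Animal 22, the lowest heart for most of these genes, is 1 of the points in each. The genes whose log2 CPM was most like that of Pln among 13182 candidates were Dpyd (r = 0.981), Corin (0.967) and B630005N14Rik (0.965). Corin, which encodes the protease that activates atrial natriuretic peptide, was 241 to 324 CPM in S and 455 to 521 in T, with 287 to 398 in A + T. Casq2 was most like Wdr92 (r = 0.977), Ak3 (0.976) and Ccng1 (0.975). By the same measure, chosen for Sln after its spread was seen, Sln was most like Fgf12 (0.989), Dkk3 (0.989) and Tmem163 (0.988), of which Dkk3 is among the atrial markers above.

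Around these 10 genes, a list of 92 further calcium handling genes in 6 roles had 86 in the table and 82 tested. In T vs. S, 16 of the 82 were called (19.5%, against 21.2% of all genes), 7 higher and 9 lower, with a median log2 fold change of −0.05. Among 9 further genes of the pump and its inhibitors 0 were called by edgeR's quasi-likelihood test, DESeq2, limma-voom or the likelihood ratio test, with 1 at an unadjusted P-value under 0.05. Among 19 genes of the release channel, junction and store 6 were called (31.6%, against 21.2% of all genes). Jph1, which encodes another junctophilin, and Tmem38b, a potassium channel of the store, were higher. Casq1, the skeletal muscle calsequestrin, Bin1, Ryr3 and Itpr1 were lower.

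Casq1 was 9.46, 11.4 and 14.5 CPM in S and 5.39, 4.58 and 4.12 in T, with 6.31, 6.32 and 4.19 in A + T. Every S heart was above every T and A + T heart. The skeletal muscle markers summed to 3.43 to 3.96 CPM in S and 2.06 to 3.28 in T, with 2.97 to 4.44 in A + T, and their part in the level of Casq1 was not tested. Its log2 fold change was −1.31 in T vs. S (SE 0.21, adjusted P = 0.00222) and −1.07 in A + T vs. S (SE 0.21, adjusted P = 0.0146), and the latter call was lost without animal 3 (adjusted P = 0.0542) or animal 5 (0.0509) of S. Tmem38b was 33.5, 37.8 and 40.4 CPM in S and 78.6, 78.5 and 68.9 in T, with 46.5, 49.0 and 47.0 in A + T, and no groups overlapped. It was the only gene of this role called in A + T vs. T, where it fell by 0.67 on the log2 scale (SE 0.09, adjusted P = 0.00417).

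Of 18 further entry channel genes, 3 were called in T vs. S (16.7%, against 21.2% of all genes). Among them were Trpc1, which was higher, and Stim1, which was lower. Stim1, the sensor of store calcium, was 35.9 to 39.5 CPM in S and 25.4 to 28.5 in T, with 26.9 to 31.8 in A + T. Its log2 fold change between A + T and S was −0.37 (SE 0.09, adjusted P = 0.0315), and the call was lost without animal 2, 3, 5, 21 or 22 (adjusted P = 0.0669 to 0.120) and with library size only (0.138).

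Of 8 further extrusion and sodium pump genes, 1 was called in T vs. S (12.5%, against 21.2% of all genes). Atp2b4, a calcium pump of the surface membrane, was 40.9 to 59.7 CPM in S and 18.3 to 25.7 in T, with 28.7 to 33.4 in A + T. Its log2 fold change was −1.11 in T vs. S (SE 0.16, adjusted P = 0.00123) and −0.71 in A + T vs. S (SE 0.16, adjusted P = 0.0239), the latter lost without animal 2, 3 or 20 (adjusted P = 0.0571 to 0.0961). Smooth muscle markers, whose cells also express this pump, summed to 143.6 to 169.1 CPM in S and 64.7 to 118 in T, with 90.0 to 93.0 in A + T (4 of 4 genes, none at 0), and their part in the result was not tested.

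Among 19 kinase and phosphatase genes 4 were called in T vs. S (21.1%, against 21.2% of all genes). Prkar1a, a regulatory subunit of protein kinase A, the other kinase that phosphorylates phospholamban, was 787, 811.5 and 850.1 CPM in S and 1444, 1367 and 1605 in T, with 1004, 910.3 and 818 in A + T. T did not overlap either other group. Its log2 fold change was 0.85 in T vs. S (SE 0.10, adjusted P = 0.000489) and −0.69 in A + T vs. T (SE 0.10, adjusted P = 0.00696), and both calls were kept in all 20 alternatives. Ppp1ca and Ppp1cb, catalytic subunits of the phosphatase that acts on phospholamban, were also higher in T vs. S (log2 fold changes 0.35 and 0.46), and Camk2g, a sister of Camk2d, was lower (−0.28). Among 9 mitochondrial calcium uptake genes 2 were called in T vs. S (22.2%, against 21.2% of all genes), Micu2 higher and Letm1 lower. Letm1 was 86.8 to 92.4 CPM in S and 59.1 to 67.2 in T, with 58.7 to 73.7 in A + T. It lay at a log2 fold change of −0.53 between T and S (SE 0.10, adjusted P = 0.00386) and −0.41 between A + T and S (SE 0.09, adjusted P = 0.0285), the latter lost without animal 2, 3 or 5 (adjusted P = 0.0749 to 0.0987) and with library size only (0.121).

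For A + T vs. T, 5 of the 82 further genes were called (6.10%, against 5.88% of all genes). Of these, 1 was higher and 4 were lower, among the latter Ppp2ca, Prkar1a and Tmem38b. For A + T vs. S, 6 were called (7.32%, against 8.31%), 1 higher (Tmem38b) and 5 lower, among the latter Atp2b4, Casq1, Letm1 and Stim1. With each heart left out in turn, Itpr1, Stim1 and Tmem38b kept their T vs. S call in 9 of 9 fits, Ppp1ca and Ppp1cb in 6, Micu2, Ryr3 and Trpc1 in 5, Bin1 and Jph1 in 4 and Camk2g in 3. Ppp2ca kept its call against T in 3 of 9, and Tmem38b its call against S in A + T in 2 of 9. In each comparison the share called among the further genes lay near that of all genes.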

How the data were processed

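Per the labels and the study's methods, heart mRNA was sequenced as 75-base read pairs, all libraries at one time. The authors aligned reads to mm10 with STAR and counted unique reads on RefSeq genes by strand with featureCounts, giving the deposited raw counts. A deposited log2 table holds expression scaled by library and gene length, and was used for levels between genes. In the table, 3443 rows without a gene symbol were dropped.

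Genes under 0.5 CPM in more than 4 of 9 libraries were removed (526). The main test was the quasi-likelihood test of edgeR 4.0.16 (R 4.3.3) with TMM scaling over all 9 libraries and Benjamini-Hochberg adjustment over 13364 genes, called at 0.05. Alternatives used DESeq2 1.42.0 and limma 3.58.1, other scalings and filters, and each heart left out. Scripts were tested on simulated counts. Ratios used counts. The floor for a gene at 0, 3 counts, was 0.152 to 0.242 CPM. Correlations used exact permutations (scipy 1.17.1). The 10 genes, the 92 further genes and the marker lists were chosen with earlier results of these data known. The further genes given with levels were, per role and comparison, the called gene with the largest change at a mean of at least 10 counts, and other called genes were named after their values were seen. Some genes that this rule names are not reported here. Replicates were separate animals, and replicates of a group differed by more than counting error. Transcript positions came from GENCODE M21. The authors' fold changes and P-values in the published list were used only to check the group labels.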

Additional observations from a re-analysis of the deposited data

How the results depend on the processing

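Of 860 refits of single genes (43 results under 20 alternatives), 792 kept direction and side of the threshold, 43 were no longer called, 6 became called and 19 changed sign, none of them a called result. With upper-quartile scaling, at least 10 counts, or limma on the deposited log2 values, 1 of the 10 genes was called in T vs. S, and with library size only or the study's thresholds 0. The length correction called Cacna1c there in addition to Pln and Casq2. Leaving out each heart gave 0 to 3 in T vs. S, with 0 without animal 3 of S or animal 15 of T and 3 without animal 22. Between A + T and S, DESeq2, the likelihood ratio test, limma-voom and an adjusted P-value under 0.1 each called 1, and leaving out each heart gave 0 to 1. In A + T vs. T no alternative called any. Among the 82 further genes, T vs. S gave 9 with library size only, 8 under the study's thresholds and 8 to 24 with a heart left out. A + T vs. T gave 10 with DESeq2, 8 with the likelihood ratio test, 3 with library size only, 2 with only the groups compared, 11 with the length correction, 3 under the study's thresholds, 11 at an adjusted P-value under 0.1 and 2 to 6 with a heart left out. A + T vs. S gave 3 with library size only, 10 at 0.1 and 1 to 8 with a heart left out. The number called among all genes moved too. In T vs. S it was 2838 in the main fit and 1636 with library size only. In A + T vs. T it was 786 in the main fit and 438 with library size only. DESeq2 called 1198 there and the length correction 1298. In A + T vs. S it was 1110 in the main fit and 555 with library size only. The study's thresholds called 14.2% of all genes in T vs. S and 8.11% in A + T vs. T. The cause of these shifts was not tested.

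The length correction, chosen after the data were seen, turned Atp2a2 to 0.054 in T vs. S, Trdn to −0.0452 in A + T vs. T and Slc8a1 to 0.0235 in A + T vs. S. Trdn in T vs. S was −0.0119 with upper-quartile scaling and −0.0247 with library size only. With a heart left out, Sln ranged from −1.81 to 0.15 in T vs. S and −1.26 to 0.75 in A + T vs. T. Ryr2 ranged from −0.23 to 0.16 in A + T vs. T and −0.37 to 0.0354 in A + T vs. S, and Casq2 from −0.0137 to 0.16 in A + T vs. T. Trdn ranged from −0.0313 to 0.0616 in T vs. S, −0.0125 to 0.0524 in A + T vs. T and −0.012 to 0.0817 in A + T vs. S. For A + T vs. S, Cacna1c ranged from −0.0349 to 0.30 and Slc8a1 from −0.20 to 0.14. No paired analysis was possible because the replicate numbers were given in accession order and the groups hold different animals. Each of the 10 genes averaged at least 1240 counts in every comparison.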
